A study of Ovis aries with 36 samples.

Results

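The small MAF and NRF2 antioxidant genes are a set of 10: the small MAF factors MAFF, MAFG and MAFK, the partner factors NFE2L2 (which encodes NRF2) and BACH1, and the antioxidant target genes HMOX1, NQO1, GCLM, TXNRD1 and OSGIN1. They were picked by symbol from the 35223 genes of the deposited count table, with their difference between the study's media already known. All 10 were found and all 10 were among the 22488 genes that passed the filter on low counts.

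The libraries come from RNA of ovine ruminal epithelial cells, the lining cells of the sheep forestomach, grown in dishes. Each culture was held for 2 h without serum in the presence of 100 nM dexamethasone, a glucocorticoid that sets cellular clocks to a common phase. It was then given medium at pH 7.2 with a mixture of volatile fatty acids (VFAs), the products of rumen fermentation. The title of the series states its interest in how VFA concentration bears on circadian gene expression. Grain medium contained acetate at 71.1 mM, propionate at 20.1 mM, butyrate at 16.0 mM, valerate at 1.7 mM, isobutyrate at 1.1 mM and isovalerate at 5.3 mM, and its stated VFA total was 115.78 mM. In Hay medium, the level set against it, acetate was at 60.8 mM, propionate at 14.6 mM, butyrate at 9.2 mM, valerate at 1.2 mM, isobutyrate at 1.0 mM and isovalerate at 3.0 mM, for a stated total of 89.79 mM. Because the 3 main acids were added as sodium salts, sodium differed too, and cells given no VFA were not analysed here. Cells of both media were collected every 4 h at T0, T4, T8, T12, T16 and T20, which the design text also calls 24 h to 44 h without making clear from which event. This gave 12 groups of 3 libraries, 18 libraries a medium.

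NRF2 is a transcription factor that KEAP1 holds at a low level by passing it to the CUL3 ubiquitin ligase, and it accumulates when oxidants or electrophiles modify KEAP1. NRF2 binds antioxidant response elements only in a pair with a small MAF protein, and such pairs switch on genes for glutathione, thioredoxin, quinone and heme metabolism. BACH1 pairs with the same small MAF proteins and represses many of the same genes until heme displaces it, while small MAF pairs without either partner have no activating domain. Protein levels, the cellular location of NRF2 and binding to DNA were not measured here.

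Levels are given as CPM, which are counts put on a common library size. Total counts ran from 52.4 to 65.3 M in Grain libraries and from 55.1 to 68.1 M in Hay libraries. Replicates differed by more than sampling noise in all 36 pairs, with a chi-square of 4.85 to 25.7 per degree of freedom. Whether replicates are separate cultures or animals is not in the labels, so p-values measure no more than the spread between libraries, which may be technical. Mesenchymal markers were abundant in libraries labelled epithelial. The 8 genes, VIM and COL1A2 among them, summed to 19271 to 31694 CPM in Grain and 17541 to 24209 CPM in Hay. Of the 8, 4 passed as higher and 4 as lower in Grain, so the sum does not give the direction of its members. VIM averaged 13165 CPM in Grain and 6374 CPM in Hay, and COL1A2 3961 CPM in Grain and 6472 CPM in Hay. The 8 keratinocyte markers summed to 182 to 559 CPM in Grain and 222 to 311 CPM in Hay. Of the 7 that were tested, 2 passed as higher in Grain (KRT14 and KRT5) and 5 as lower. KRT14, the most abundant, averaged 205 CPM in Grain and 119 CPM in Hay. Of 6 markers of epithelial adhesion and simple epithelium 5 were in the table, of which 1 passed as higher and 4 as lower in Grain. They summed to 141 to 219 CPM in Grain and 250 to 297 CPM in Hay. The 5 endothelial markers summed to 5.96 to 9.97 CPM in Grain and 7.07 to 11.0 CPM in Hay. Of these, 1 passed as higher in Grain, 3 passed as lower and 1 did not pass. The 3 of 5 erythroid markers in the table summed to at most 0.444 CPM in Grain and 0.479 CPM in Hay. The part of cell makeup in the results below was not tested, and in bulk RNA fewer cells of a type and less RNA per cell cannot be told apart.

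The small MAF genes and OSGIN1 were higher in Grain, and 4 of the 5 target genes were lower there together with NFE2L2. In all, 5 of the 10 genes were higher in Grain and 5 were lower. Log2 differences, Grain minus Hay over the mean of the 6 time points, ran from 3.14 for MAFF to −1.52 for HMOX1. All 10 passed the threshold of 0.05 on adjusted p, as did 81.8% of all tested genes (37.9% higher and 43.9% lower in Grain). In 4 genes every Grain library lay above every Hay library, which held for 15.4% of all tested genes. In 3 genes every Grain library lay below every Hay library, which held for 11.9%. Since the difference between the media was known when the genes were picked, these counts are a description and nothing is read from them, and no p-value is given for it. Within single time points the libraries of the media did not overlap in 56 of 60 pairs of gene and time, as in 65.8% of such pairs over all tested genes, and nothing is read from this count either. The median log2 difference of the 10 genes was −0.07, and that of all tested genes was also −0.07. The median of the 10 falls between genes that were higher and genes that were lower, and describes none of them. Their smallest absolute log2 difference was 0.31, for BACH1. The median absolute log2 difference of all tested genes was 0.49.

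**Figure D1:**
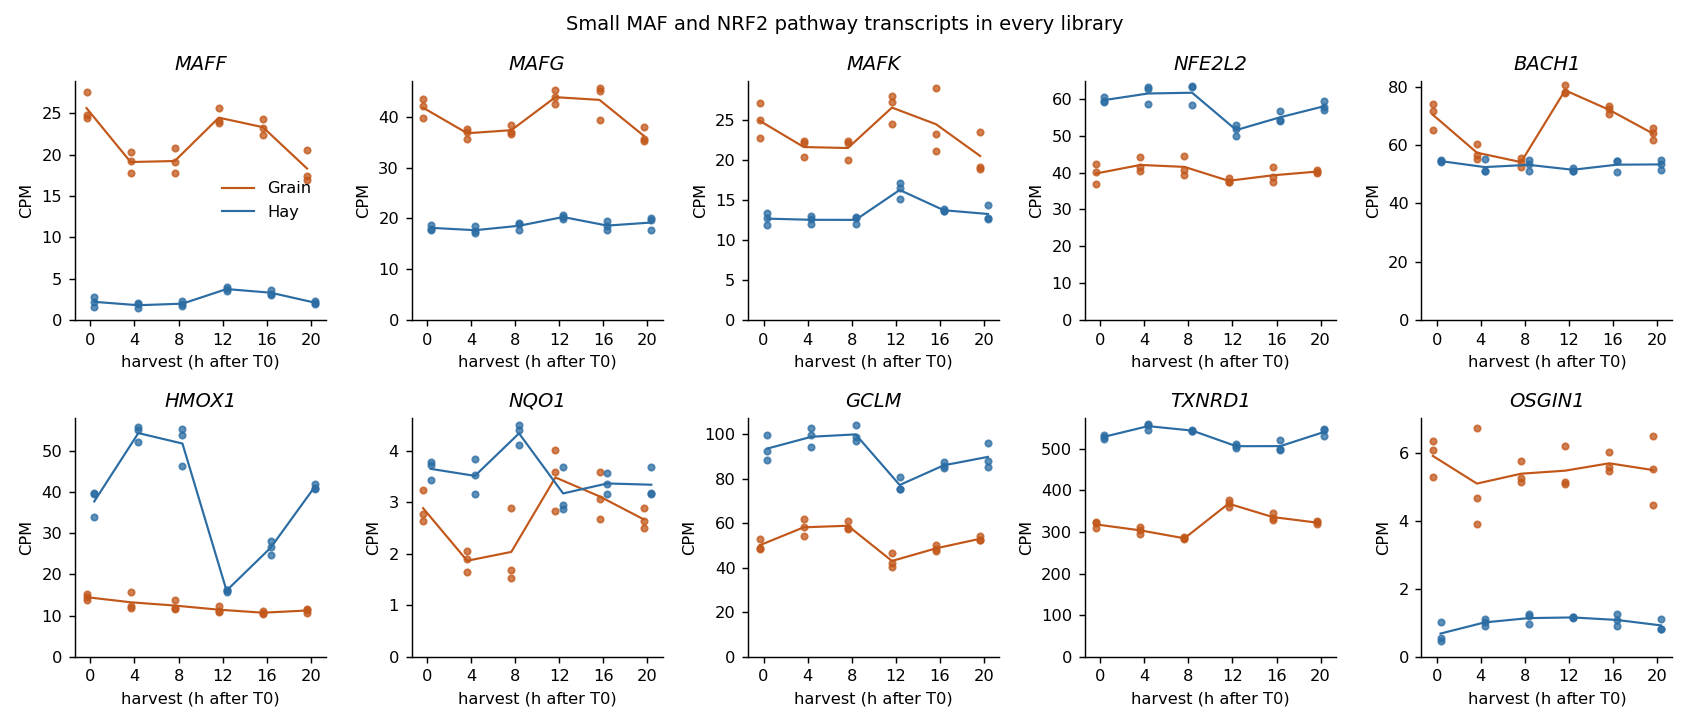
CPM (vertical axes, from 0, with a scale of their own in each panel) of the 10 genes against harvest time in hours after T0. Points are single libraries and lines join the means of 3 libraries; Grain is drawn in orange, slightly to the left, and Hay in blue. The small MAF genes and OSGIN1 lie higher in Grain at every time, HMOX1 in Hay swings between 16.1 and 54.3 CPM while it stays between 10.7 and 14.5 CPM in Grain, and BACH1 and NQO1 meet between the media at some times.

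MAFF, the small MAF protein known for its induction by stress and inflammatory signals, had the largest difference of the set. Its lowest, median and highest library stood at 17.0, 21.6 and 27.6 CPM in Grain and at 1.47, 2.25 and 4.00 CPM in Hay. Every Grain library lay far above every Hay library. Its log2 difference of 3.14 ± 0.051 (SE), or 8.83-fold, ranked 358 by size among the 22488 tested genes.

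Over time MAFF averaged 25.6 ± 1.71, 19.1 ± 1.26, 19.2 ± 1.54, 24.5 ± 0.984, 23.3 ± 1.03 and 18.3 ± 1.91 CPM at T0 to T20 in Grain (SD, n = 3 at each time here and below). In Hay it averaged 2.21 ± 0.606, 1.80 ± 0.289, 1.99 ± 0.320, 3.75 ± 0.246, 3.31 ± 0.318 and 2.11 ± 0.203 CPM. In Grain the high times were T0, T12 and T16, and in Hay they were T12 and T16 without T0. MAFF changed over time in both media (edgeR quasi-likelihood test, adjusted p 0.000185 in Grain and 3.07e-08 in Hay), and its difference between the media depended on time (adjusted p 0.000646). The log2 difference was 3.53 ± 0.13 at T0 and 2.71 ± 0.12 at T12, its largest and smallest values.

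MAFG, a small MAF protein that often partners NRF2, stood at 35.1, 38.8 and 45.6 CPM (lowest, median, highest) in Grain and at 17.1, 18.7 and 20.7 CPM in Hay. No Hay library came near the Grain range, and the log2 difference was 1.09 ± 0.022, or 2.12-fold. Its time course in Grain had the same high times as that of MAFF, with 41.8 ± 1.83, 36.8 ± 0.996, 37.4 ± 0.867, 43.8 ± 1.43, 43.3 ± 3.48 and 36.3 ± 1.55 CPM from T0 to T20. In Hay it stayed between 17.7 ± 0.704 CPM at T4 and 20.3 ± 0.392 CPM at T12. MAFG changed over time in Grain (adjusted p 5.88e-06), while the test in Hay missed the threshold (adjusted p 0.0563). Its difference between the media depended on time (adjusted p 0.0102) and ran from 0.92 ± 0.054 at T20 to 1.22 ± 0.054 at T16 on the log2 scale.

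MAFK, the third small MAF protein, stood at 18.9, 22.6 and 29.1 CPM in Grain and at 12.0, 13.0 and 17.1 CPM in Hay. The ranges came closer than those of MAFF and MAFG but did not overlap, for a log2 difference of 0.78 ± 0.036, or 1.72-fold. MAFK was highest at T12 in both media, at 26.6 ± 1.86 CPM in Grain and 16.3 ± 1.01 CPM in Hay. It changed over time in both (adjusted p 0.00164 in Grain and 0.00402 in Hay), and without the T12 libraries the change in Hay was lost (adjusted p 0.736). A dependence of its difference on time was not detected (adjusted p 0.28). MAFK overlaps TMEM184A, which had 0.342 ± 0.130 CPM in Grain and 0.244 ± 0.130 CPM in Hay (SD, n = 18). Overlap was judged from gene start and end, introns included, so overlapping genes need not share reads. The kit does not keep strand, so reads from a stretch that such genes share cannot be told apart by strand.

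The 3 small MAF genes summed to 84.9 ± 8.92 CPM in Grain and 34.8 ± 2.91 CPM in Hay (SD, n = 18 each). MAFF supplied 25.5% ± 1.77 of their counts in Grain and 7.16% ± 1.80 in Hay. MAFG supplied 47.1% ± 1.67 in Grain and 54.0% ± 2.54 in Hay, and MAFK 27.4% ± 1.75 in Grain and 38.8% ± 1.85 in Hay. These are shares of counts and not of molecules, because transcript lengths were not available for scaling. They are a description, since the differences of these genes between the media were known when the genes were picked. The lowest share of MAFF in a Grain library was 21.6% and the highest in a Hay library was 10.2%. At T12 its share was 25.8% ± 0.955 in Grain and 9.32% ± 0.880 in Hay, and at T4 it was 24.6% ± 1.05 in Grain and 5.62% ± 0.954 in Hay.

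NFE2L2 stood at 36.8, 40.1 and 44.6 CPM (lowest, median, highest) in Grain and at 50.0, 58.5 and 63.5 CPM in Hay. Every Grain library lay below every Hay library, with a log2 difference of −0.53 ± 0.020, so that Hay was 1.44-fold higher. In Grain the means ran from 37.8 ± 0.690 CPM at T12 to 42.1 ± 2.04 CPM at T4, and the test of time missed the threshold (adjusted p 0.069). In Hay they were 59.6 ± 0.638, 61.4 ± 2.49, 61.6 ± 2.88, 51.5 ± 1.41, 55.0 ± 1.46 and 58.0 ± 1.20 CPM from T0 to T20. T12 was the low point in both media, and in Hay the change over time passed (adjusted p 9.66e-05), though not without the T12 libraries (adjusted p 0.0655).

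A dependence of the NFE2L2 difference on time was not detected (adjusted p 0.511). It overlaps LOC132659200, at 1.88 ± 0.625 CPM in Grain and 7.47 ± 1.41 CPM in Hay, and LOC132659203, at 6.87 ± 0.891 CPM in Grain and 5.73 ± 1.06 CPM in Hay (SD, n = 18). With the counts of these neighbours added, the dependence on time passed (adjusted p 0.015).

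BACH1 behaved differently in the media over time. It stood at 52.6, 65.7 and 80.5 CPM in Grain and at 50.9, 53.6 and 55.2 CPM in Hay, so the lower end of the Grain range lay within the Hay range. In Grain it averaged 70.4 ± 4.58, 57.4 ± 2.64, 54.2 ± 1.51, 78.8 ± 1.49, 72.1 ± 1.44 and 63.9 ± 2.13 CPM from T0 to T20. In Hay the 6 means lay between 51.6 ± 0.668 CPM at T12 and 54.5 ± 0.492 CPM at T0. BACH1 thus moved over a 1.45-fold range in Grain and a 1.06-fold range in Hay. The change over time passed in Grain (adjusted p 2.65e-13) and was not detected in Hay (adjusted p 0.717), and the dependence of the difference on time passed (adjusted p 3.65e-09).

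BACH1 had a log2 difference of 0.31 ± 0.017 over the mean of the time points. This was 0.61 ± 0.042 at T12, where the libraries of the media were clearly apart, and 0.13 ± 0.042 at T4 and 0.03 ± 0.042 at T8, where they overlapped. At T8 its sign turned with the scaling, to −0.02 with DESeq2 size factors and −0.07 with upper-quartile factors.

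Counts of NFE2L2 per count of BACH1 were 0.620 ± 0.110 in Grain and 1.09 ± 0.068 in Hay (SD, n = 18 each). The highest Grain library reached 0.821 and the lowest Hay library 0.976, so the ratio did not overlap. NFE2L2 alone did not overlap either, and its difference was known when it was picked, so this is a description. The ratio was lowest at T12 in both media, at 0.479 ± 0.00091 in Grain and 0.999 ± 0.031 in Hay. At T8 it was 0.767 ± 0.057 in Grain and 1.16 ± 0.025 in Hay. It is a ratio of counts, which depend on transcript length, and so only its change between libraries can be read.

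**Figure D2:**
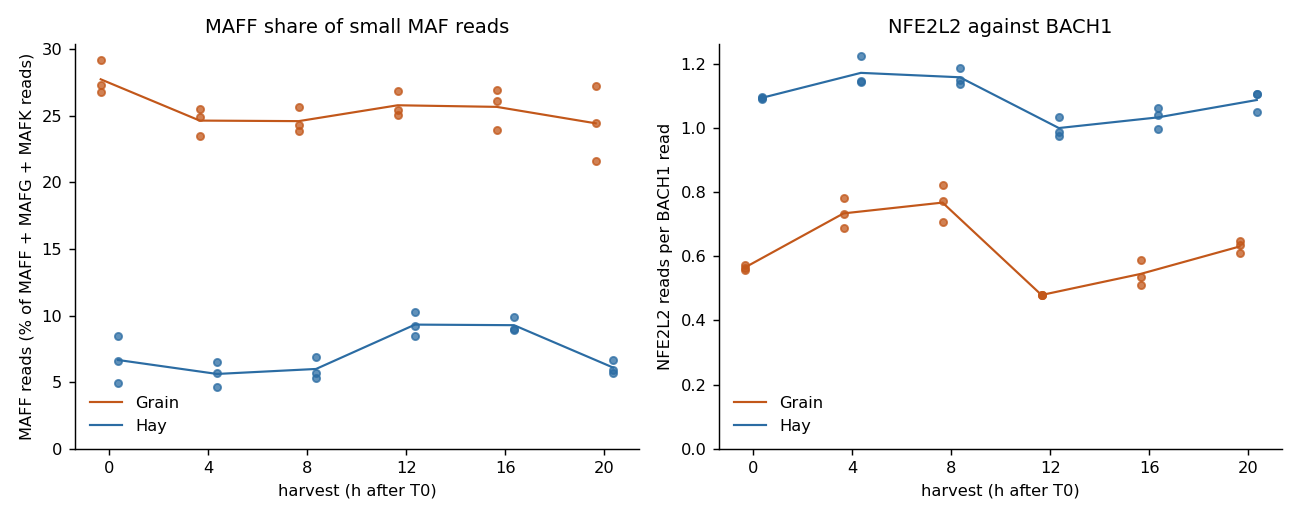
Left, MAFF counts as a percentage of the counts of the 3 small MAF genes; right, NFE2L2 counts per BACH1 count; both against harvest time in hours after T0, for single libraries (points) and means of 3 (lines), Grain in orange and Hay in blue. MAFF supplied 21.6% or more in every Grain library and at most 10.2% in every Hay library, and the ratio of NFE2L2 to BACH1 was at most 0.821 in Grain and at least 0.976 in Hay.

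HMOX1, the inducible heme oxygenase and a textbook target of BACH1 repression, had the widest range over time of the set, and had it in Hay. It stood at 10.3, 11.7 and 15.7 CPM (lowest, median, highest) in Grain and at 15.7, 40.2 and 55.8 CPM in Hay. In Hay the single libraries had 34.0, 39.5 and 39.7 CPM at T0, 52.1, 55.8 and 55.1 CPM at T4, and 46.3, 53.8 and 55.2 CPM at T8. The later Hay libraries had 16.2, 15.7 and 16.3 CPM at T12, 26.6, 24.8 and 28.1 CPM at T16, and 41.0, 42.0 and 40.7 CPM at T20. The level in Hay thus dropped between T8 and T12 and climbed again up to T20, with the T4 mean 3.38-fold above the T12 mean. In Grain the means were 14.5 ± 0.695, 13.2 ± 2.16, 12.4 ± 1.16, 11.4 ± 0.800, 10.7 ± 0.432 and 11.2 ± 0.495 CPM from T0 to T20, with no such drop.

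The change of HMOX1 over time passed in both media (adjusted p 0.000254 in Grain and 2.22e-19 in Hay), as did the dependence of its difference on time (adjusted p 2.6e-13). Grain minus Hay was −1.52 ± 0.033 on the log2 scale over the mean of the time points, −2.06 ± 0.080 at T8 and −0.49 ± 0.084 at T12. At each single time every Grain library lay below every Hay library. Without the T12 libraries the mean difference was −1.74, and the change over time in Hay and the dependence on time still passed (adjusted p at most 2.89e-11 and 2.64e-06 in any setting that left out no single library).

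HMOX1 is also strong in macrophages, and the summed markers of macrophages and leukocytes were lower in Grain. Of 8 such markers 7 were in the table, and they summed to 3.30 to 5.10 CPM in Grain and 6.00 to 8.03 CPM in Hay. The sum rests largely on CD14, which averaged 2.39 CPM in Grain and 3.89 CPM in Hay. Each of the others averaged at most 0.430 CPM in Grain (CD68) and 0.993 CPM in Hay (MRC1). The sum therefore cannot show whether the number of such cells was steady. PTPRC, CD14, MRC1 and C1QA were lower in Grain, CD68 and CSF1R were higher, and AIF1 did not pass. None of the 7 was at 0 in all libraries. Within Hay the summed markers lay between 6.16 and 7.65 CPM at T4 and between 6.00 and 7.89 CPM at T12. HMOX1 in Hay averaged 54.3 CPM at T4 and 16.1 CPM at T12. The part of such cells in the difference between the media, or in the course of HMOX1 over time, was not tested.

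NQO1, a quinone reductase and a common readout of NRF2, had few reads. It stood at 1.53, 2.73 and 4.02 CPM in Grain and at 2.87, 3.56 and 4.49 CPM in Hay, with overlapping ranges. In Grain it averaged 2.88 ± 0.307, 1.86 ± 0.213, 2.04 ± 0.746, 3.48 ± 0.596, 3.11 ± 0.460 and 2.67 ± 0.195 CPM from T0 to T20. In Hay it averaged 3.65 ± 0.183, 3.51 ± 0.346, 4.34 ± 0.195, 3.17 ± 0.453, 3.37 ± 0.205 and 3.34 ± 0.300 CPM. Its low times in Grain were T4 and T8, and the libraries of the media overlapped at T12 and T16.

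NQO1 changed over time in Grain (adjusted p 7.26e-05), the test in Hay missed the threshold (adjusted p 0.182), and the difference depended on time (adjusted p 0.000207). On the log2 scale Grain minus Hay was −0.44 ± 0.066 over the mean of the time points, −1.09 ± 0.16 at T8 and 0.13 ± 0.16 at T12. At T8 Grain replicate 1 stood at 2.89 CPM beside 1.69 and 1.53 CPM in the other replicates, and the difference was larger without it, at −1.43.

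GCLM, the modifier subunit of the enzyme that starts glutathione synthesis, stood at 40.4, 52.5 and 61.7 CPM in Grain and at 75.3, 90.5 and 104 CPM in Hay. The ranges did not overlap, and at a log2 difference of −0.81 ± 0.021 Hay was 1.75-fold higher. The highest and lowest times of GCLM were the same in both media. It was highest at T8, at 58.9 ± 2.02 CPM in Grain and 99.9 ± 3.79 CPM in Hay. It was lowest at T12, at 43.0 ± 3.21 CPM in Grain and 77.2 ± 3.03 CPM in Hay. It changed over time in both (adjusted p 1.42e-08 in Grain and 9.05e-07 in Hay). A dependence of the difference on time was not detected (adjusted p 0.486), and the log2 difference stayed between −0.90 at T0 and −0.76 at T20.

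TXNRD1, the cytosolic thioredoxin reductase, had tight replicates. It stood at 282, 322 and 377 CPM in Grain and at 498, 532 and 560 CPM in Hay, far apart. It averaged 318 ± 6.93, 304 ± 7.90, 285 ± 2.36, 368 ± 8.87, 336 ± 8.06 and 322 ± 3.72 CPM from T0 to T20 in Grain. In Hay it averaged 528 ± 4.39, 554 ± 8.47, 543 ± 1.70, 506 ± 5.06, 506 ± 13.3 and 540 ± 8.93 CPM. T12 was the highest time in Grain and, with T16, the lowest in Hay.

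TXNRD1 changed over time in both media (adjusted p 2.27e-13 in Grain and 7.98e-05 in Hay), and the difference depended on time (adjusted p 1.8e-12). Its log2 difference was −0.72 ± 0.011 over the mean of the time points, −0.93 ± 0.026 at T8 and −0.46 ± 0.026 at T12. TXNRD1 overlaps EID3, at 23.1 ± 1.05 CPM in Grain and 23.1 ± 1.21 CPM in Hay, and LOC105611359, at 0.0718 ± 0.0284 CPM in Grain and 0.0697 ± 0.0190 CPM in Hay.

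OSGIN1, a growth inhibitor named for its induction by oxidative stress, was the target gene that differed the other way. It stood at 3.90, 5.49 and 6.71 CPM in Grain and at 0.478, 1.05 and 1.27 CPM in Hay, far apart though at few reads. With 2.48 ± 0.079 on the log2 scale, or 5.58-fold, its difference ranked 772 by size among all tested genes. In Grain it stayed between 5.09 ± 1.46 CPM at T4 and 5.91 ± 0.550 CPM at T0, and no change over time was detected (adjusted p 0.906).

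In Hay OSGIN1 averaged 0.683 ± 0.288 CPM at T0 and 1.16 ± 0.00966 CPM at T12, and the test of time missed the threshold (adjusted p 0.0594). The dependence of its difference on time also missed it (adjusted p 0.0962). That result turned on single libraries: it passed without Hay T0 replicate 3 (adjusted p 0.00563) or without Grain T4 replicate 3 (adjusted p 0.0254). OSGIN1 overlaps LOC121816463, at 0.158 ± 0.116 CPM in Grain and 0.212 ± 0.128 CPM in Hay.

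**Figure D3:**
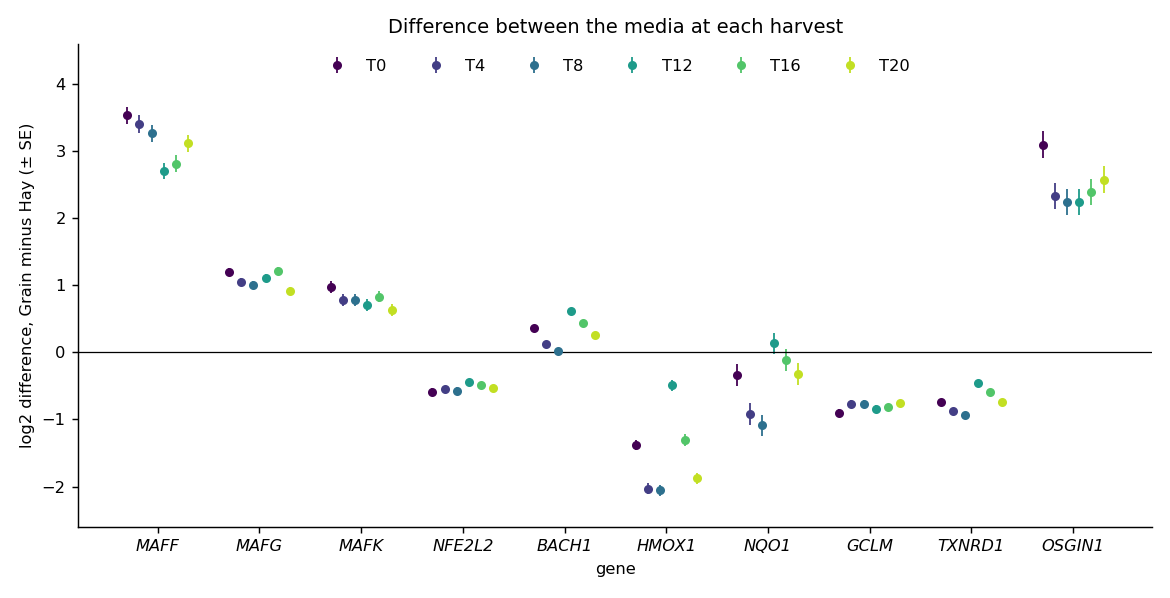
Log2 difference between the media, Grain minus Hay, for each gene at T0 to T20 (colours from dark to light), with standard errors from the fit over all libraries. MAFF, MAFG, MAFK and OSGIN1 lie above 0 and NFE2L2, HMOX1, GCLM and TXNRD1 below 0 at each time, NQO1 spans −1.09 to 0.13, and BACH1 falls to 0.03 at T8, where its sign turned with the scaling.

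Across the set, the difference between the media depended on time in 6 of 10 genes, which held for 32.6% of all tested genes. These were MAFF, MAFG, BACH1, HMOX1, NQO1 and TXNRD1. Time points differed within Grain in 8 of 10 genes, against 51.5% of all tested genes, with NFE2L2 and OSGIN1 as those that missed. Within Hay they differed in 6 of 10 genes, against 35.2% of all tested genes, and MAFG, BACH1, NQO1 and OSGIN1 missed. Shares over all tested genes, here and below, were not matched to the 10 genes for expression level. For HMOX1, TXNRD1 and MAFF the difference was nearest to 0 at T12, for NQO1 it was above 0 at T12 alone, and for BACH1 it was largest at T12. T12 was also the time at which the whole table moved most, with a median absolute log2 step from T8 of 0.23 in Grain and 0.18 in Hay, against 0.07 to 0.13 for the other steps. Cell-type markers moved at the same step. In Grain the keratinocyte markers summed to 182 to 210 CPM at T8 and 520 to 559 CPM at T12, and in Hay to 222 to 240 CPM at T8 and 307 to 311 CPM at T12. The mesenchymal markers summed to 19271 to 20092 CPM at T8 and 31196 to 31694 CPM at T12 in Grain, and to 17541 to 18404 CPM at T8 and 23536 to 24209 CPM at T12 in Hay. The epithelial adhesion markers summed to 141 to 157 CPM at T8 and 199 to 219 CPM at T12 in Grain, but were close in Hay, at 261 to 281 CPM at T8 and 267 to 270 CPM at T12. The endothelial markers were lower at T12, at 8.03 to 9.88 CPM at T8 and 5.96 to 7.17 CPM at T12 in Grain, and 10.5 to 11.0 CPM at T8 and 7.70 to 8.65 CPM at T12 in Hay. The macrophage and leukocyte markers were also lower at T12 in Grain, at 4.37 to 5.10 CPM at T8 and 3.30 to 3.67 CPM at T12. In Hay they overlapped, at 6.85 to 7.15 CPM at T8 and 6.00 to 7.89 CPM at T12. The part of cell makeup in the time courses of the 10 genes was not tested.

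A cosine of 24 h period was fitted in each medium to ask for a daily course, although harvests over 20 h span less than a full cycle and cannot show that a course repeats. In Grain it passed for 4 of 10 genes, against 31.8% of all tested genes. These were NQO1, with an amplitude of 0.35 ± 0.084 log2 units and a peak at T16.3, BACH1, with 0.18 ± 0.038 and a peak at T16.4, GCLM, with 0.15 ± 0.039 and a peak at T3.56, and TXNRD1, with 0.11 ± 0.024 and a peak at T15.6. The adjusted p-values were 0.00581 for NQO1, 0.00189 for BACH1, 0.0113 for GCLM and 0.00166 for TXNRD1. The SE of the peak was 0.91 h for NQO1, 0.81 h for BACH1, 1.01 h for GCLM and 0.81 h for TXNRD1. A fitted peak is not the time of the highest level. The means of NQO1, BACH1 and TXNRD1 in Grain were highest at T12, and that of GCLM at T8.

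In Hay the cosine passed for 5 of 10 genes, against 20.7% of all tested genes. HMOX1 had the largest amplitude, 0.63 ± 0.095 with a peak at T2.64 (adjusted p 5.9e-05), and MAFF had 0.49 ± 0.088 with a peak at T14.3 (adjusted p 0.000258). The fitted peaks of those genes lay at nearly opposite times. OSGIN1 had 0.31 ± 0.087 with a peak at T11.2 (adjusted p 0.0275), GCLM 0.14 ± 0.038 with a peak at T3.11 (adjusted p 0.0196) and NFE2L2 0.11 ± 0.024 with a peak at T2.77 (adjusted p 0.00398). The OSGIN1 call was lost without Hay T0 replicate 1 or 2 (adjusted p 0.106 and 0.102) and without T12 (0.0801). GCLM passed in both media with amplitudes that were close and fitted peaks at T3.56 in Grain and T3.11 in Hay. Peaks in Hay had an SE of 0.57 h for HMOX1 and 0.69 h for MAFF. The SE was 1.07 h for OSGIN1, 1.03 h for GCLM and 0.86 h for NFE2L2. Means in Hay were highest at T4 for HMOX1, at T8 for GCLM and NFE2L2, and at T12 for MAFF and OSGIN1.

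The cosines of the media differed for 3 of 10 genes, against 11.3% of all tested genes. TXNRD1 (adjusted p 0.00304) had a fitted peak at T15.6 in Grain, while its amplitude in Hay was 0.06 ± 0.024 and did not pass. NQO1 (adjusted p 0.0178) had amplitudes of 0.35 ± 0.084 in Grain and 0.13 ± 0.081 in Hay. MAFF (adjusted p 0.0261) had 0.07 ± 0.074 in Grain and 0.49 ± 0.088 in Hay, and its call was lost without Hay T4 replicate 3, Hay T12 replicate 2 or Hay T12 replicate 3 (adjusted p 0.0514, 0.0506 and 0.0567) and without all T12 libraries (0.0974). For HMOX1, whose amplitudes were 0.19 ± 0.10 in Grain and 0.63 ± 0.095 in Hay, the difference missed the threshold (adjusted p 0.0901), and it passed without Hay T0 replicate 1 (0.0401).

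**Figure D4:**
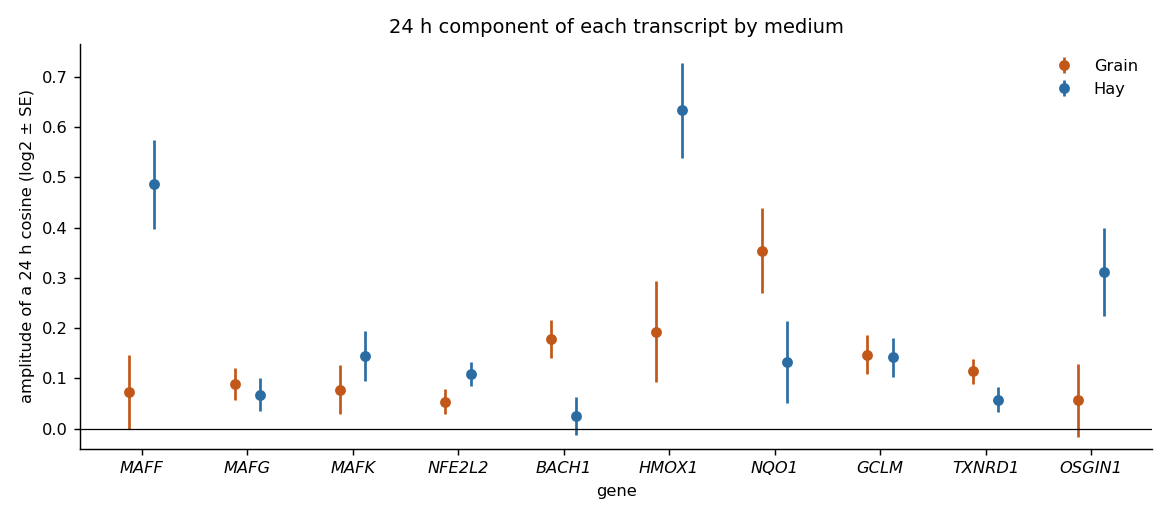
Amplitude in log2 units, with standard errors, of a cosine of 24 h period fitted to each gene in Grain (orange, left) and in Hay (blue, right). HMOX1 and MAFF have the largest amplitudes in Hay, at 0.63 and 0.49, and NQO1 the largest in Grain, at 0.35; bars that reach 0 belong to genes whose cosine did not pass the test.

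For each gene, those whose course over the 12 group means was most alike were sought among 10290 others with at least 5 CPM, by the root mean square difference of centred log2 values. MAFF was nearest to DES, the muscle intermediate filament desmin, at 0.19 log2 units, and to HSPA5, the chaperone BiP of the endoplasmic reticulum, at 0.31. MAFG was nearest to EIF2AK3, the stress kinase PERK of that compartment, at 0.04 and to SLC39A14, a zinc and iron importer, at 0.05. OSGIN1 was nearest to HERPUD1, a protein of endoplasmic reticulum protein degradation, and the calcium channel TRPV2, both at 0.20. The difference between the media is part of this measure of likeness.

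MAFK was nearest to SPMIP6 and the ubiquitin ligase subunit FBXO31, both at 0.05. NFE2L2 was nearest to SRP9, of the signal recognition particle, and the glycosyltransferase EXTL3, both at 0.04. BACH1 was nearest to DDI2, a protease, at 0.05. HMOX1 was nearest to CHGB, chromogranin B, at 0.22 and to CALCRL, the calcitonin receptor-like receptor, at 0.25. NQO1 was nearest to the glutamine transporter SLC38A2 at 0.11 and to TSC22D2 at 0.12. GCLM was nearest to TUBGCP4, of the gamma-tubulin complex, and PLAAT3, both at 0.04, and TXNRD1 to the receptor NOTCH2 at 0.04 and ASNSD1 at 0.05. Of the genes named for likeness, SPMIP6, SRP9, DDI2, NOTCH2, ASNSD1 and TRPV2 overlap another annotated gene, so their counts are uncertain too.

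Beyond these 10, 97 genes of the pathway were listed by role, of which 90 were tested. Of the 90, 42 were higher and 45 lower in Grain, 3 did not pass, and the median log2 difference was −0.02, beside −0.07 for all tested genes. Neither direction held most of the listed genes. The dependence of the difference on time passed in 51 of the 90, beside 32.6% of all tested genes. The listed genes were not matched to all tested genes for expression level, so nothing is read from these shares.

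Among 17 regulators and relatives of NRF2, 10 were higher and 6 lower in Grain (median 0.30). SQSTM1, the autophagy receptor p62 that sequesters KEAP1, was the most raised, at 310 ± 58.6 CPM in Grain and 153 ± 19.3 CPM in Hay (log2 difference 1.00 ± 0.016, SD over 18 libraries here and below). CUL3, the ligase scaffold for NRF2, differed by 0.70 ± 0.013 and KEAP1 by 0.34 ± 0.033. RBX1, the ring subunit of the same ligase, went the other way, at 17.4 ± 2.33 CPM in Grain and 36.3 ± 1.86 CPM in Hay (−1.07 ± 0.021), and was picked out after its value was seen. NFE2, the CNC factor of blood cells, had the largest fall, at 0.560 ± 0.217 CPM in Grain and 1.41 ± 0.336 CPM in Hay (−1.35 ± 0.14).

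Among 19 genes of glutathione synthesis and use, 7 were higher and 12 lower in Grain (median −0.24). GCLC, the catalytic partner of GCLM, differed little, at 63.8 ± 2.12 CPM in Grain and 69.7 ± 5.61 CPM in Hay (−0.12 ± 0.016). SLC7A11, the cystine importer, was higher in Grain, at 20.7 ± 5.11 CPM against 13.9 ± 0.957 CPM in Hay (0.53 ± 0.027). GPX7, a peroxidase of the endoplasmic reticulum, differed by 1.19 ± 0.030 and GPX2, the gastrointestinal glutathione peroxidase, by −1.60 ± 0.079.

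Among 14 thioredoxin and peroxiredoxin genes, 7 were higher and 7 lower (median −0.04). TXN, the substrate of TXNRD1, was lower in Grain like TXNRD1 itself, at 127 ± 28.2 CPM against 196 ± 23.7 CPM in Hay (−0.65 ± 0.016). SRXN1, the sulfiredoxin that is a common NRF2 target, was close between the media, at 176 ± 11.1 CPM in Grain and 170 ± 12.9 CPM in Hay (0.05 ± 0.012). PRDX3, the mitochondrial peroxiredoxin, had the largest fall (−1.08 ± 0.015) and PRDX4, that of the endoplasmic reticulum, the largest rise (0.38 ± 0.020).

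Of 10 genes that supply NADPH, 5 were higher and 4 lower (median 0.09). PGD, a dehydrogenase of the pentose phosphate pathway, differed by 0.87 ± 0.014 and TKT, transketolase of the same pathway, by 1.53 ± 0.023. IDH1, the cytosolic isocitrate dehydrogenase, had the largest fall (−0.46 ± 0.011).

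Of 12 heme and iron genes, 8 were higher and 4 lower (median 0.11). HMOX2, the constitutive heme oxygenase, was higher in Grain, where HMOX1 was lower, at 43.7 ± 3.18 CPM in Grain and 33.6 ± 2.86 CPM in Hay (0.38 ± 0.018). BLVRB, a biliverdin reductase, differed by 0.10 ± 0.023, ABCB6, a porphyrin transporter, by 0.76 ± 0.030, and SLC40A1, the iron exporter ferroportin, by −1.48 ± 0.016.

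Of 13 genes of quinone, aldehyde and xenobiotic handling, 4 were higher and 8 lower (median −0.06). NQO2, the relative of NQO1, differed by 0.09 ± 0.024, AKR1B1, aldose reductase, by −0.60 ± 0.016 and PTGR1, a prostaglandin reductase, by −0.88 ± 0.022. ALDH3A1, an aldehyde dehydrogenase, differed by 1.40 ± 0.51 near the limit of detection, at 0.186 ± 0.117 CPM in Grain and 0.0748 ± 0.0756 CPM in Hay. Of 5 genes of superoxide and peroxide removal, 4 were lower, among them SOD1 (−0.33 ± 0.018) and SOD2 (−0.18 ± 0.015), the cytosolic and mitochondrial superoxide dismutases, and CCS, the copper chaperone of SOD1, was higher (0.57 ± 0.048). Higher and lower here count genes past the threshold over all tested genes, and since the lists were chosen with earlier results of these data known, the counts are a description. Of the listed genes named, KEAP1, RBX1, SQSTM1, NFE2, SLC7A11, TXN, TKT, ABCB6 and PTGR1 overlap another annotated gene, so their counts are uncertain.

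**Figure D5:**
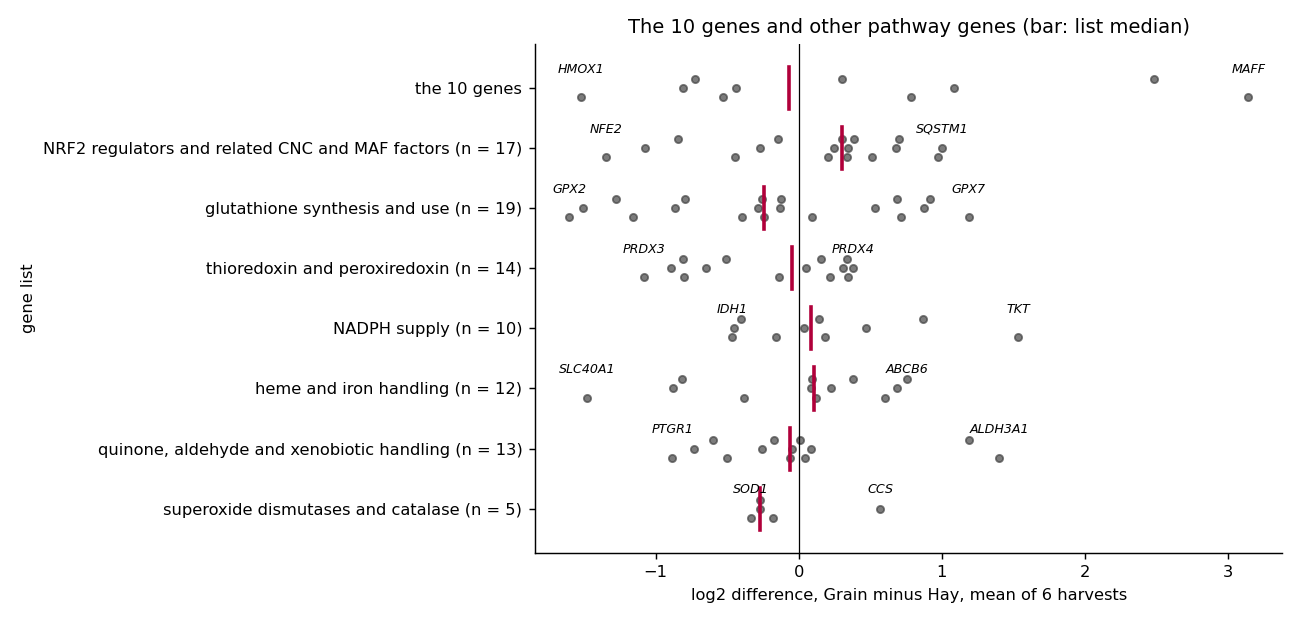
Log2 difference between the media, Grain minus Hay over the mean of 6 time points (horizontal axis), for the 10 genes and for 90 tested genes in 7 lists of the pathway; points are genes, red bars list medians, and the lowest and highest gene of each list is named. Every list has genes on both sides of 0, and MAFF at 3.14 lies farther from 0 than any gene of the lists.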

How the data were processed

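Per the labels' protocols, RNA was taken with TRNzol, made into TruSeq RNA v2 libraries, which keep no strand, and read in pairs. The submitters' processing notes name HISAT2 2.2.1, StringTie 2.1.5 and SAMtools 1.20. What counted the reads, and on which build, is not given in the sources used here. As deposited by the authors, the table holds unnormalised read counts per gene. Sequences were not used here. A RefSeq gene table (ARS-UI_Ramb_v3.0) served for names and overlaps only, and its gene coordinates were used to find the overlaps.

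Genes were filtered with filterByExpr (minimum count 10, minimum total 15) and scaled by TMM, and CPM use those factors. edgeR 4.0.16 quasi-likelihood tests (R 4.3.3) ran over 22488 genes in all 36 libraries with 12 group means, or with a mean and a 24 h cosine per medium. Adjusted p-values are two-sided Benjamini-Hochberg values over all tested genes, with a threshold of 0.05. The steps were tested on simulated counts.

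The 10 genes and the lists were chosen with earlier results of these data known. Genes named from a list were its first 2 tested, its largest rise and its largest fall; for likeness, the 2 nearest. Some genes that this rule names are not reported here. Alternatives were DESeq2 1.42.0, DESeq2 size factors, upper-quartile factors, no low-count filter, a replicate block, overlapping genes added, 1 medium alone, each library left out and, added after the data were seen, no T12 libraries.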

Additional observations from a re-analysis of the deposited data

Results flagged for a closer look

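The Grain minus Hay difference depended on the time of harvest in 6 of the 10 genes, beside 32.6% of all tested genes. The test was of that dependence itself (edgeR quasi-likelihood test of 5 contrasts, adjusted over all tested genes). The share over all tested genes was not matched for expression level. The adjusted p-values were 2.6e-13 for HMOX1, 1.8e-12 for TXNRD1, 3.65e-09 for BACH1, 0.000207 for NQO1, 0.000646 for MAFF and 0.0102 for MAFG. The genes did not share a pattern. HMOX1 varied mostly in Hay, BACH1 varied in Grain, and TXNRD1 was highest at T12 in Grain and near its lowest at T12 in Hay.

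The fitted 24 h cosine differed between the media in 3 of the 10 genes, beside 11.3% of all tested genes. The adjusted p-values of that edgeR quasi-likelihood test were 0.00304 for TXNRD1, 0.0178 for NQO1 and 0.0261 for MAFF.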

How the results depend on the processing

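The sign and the call of the mean difference were the same for all 10 genes under every setting tried. Nothing is read from this, since the difference was known when the genes were picked and 81.8% of all tested genes passed. Upper-quartile scaling moved the median of all genes by −0.12 on the log2 scale and the share of higher calls to 38.1%, against 46.4% with TMM; the log2 difference of BACH1 was then 0.18. The count of tested genes that differed between time points in Hay was 7927, and 5090 without T12; the cause was not tested. Of the 10 genes, those called numbered 6 to 7 for the dependence on time, 8 to 9 for time in Grain, 4 to 7 for time in Hay, 4 to 5 for the cosine in Grain, 4 to 6 in Hay and 2 to 4 for its difference. Replicate numbers were not taken as pairs, since not every correlation of deviations was above 0.1. For the same number and time in Grain and Hay these ran from −0.178 to 0.278. They ran from −0.178 to 0.416 over all 198 pairs of the same number, against −0.442 to 0.282 for different numbers. Such correlations cannot exclude pairing, since each deviation comes from a group of only 3 libraries. With a replicate block 18362 genes differed between the media and 10 of the 10 genes were called; the replicate block moved no count by over 1.5 times and brought OSGIN1 past the threshold for time in Hay (adjusted p 0.0445).

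Calls gained elsewhere were NQO1 for time in Hay with Hay alone (0.037) and with DESeq2 (0.0424), NFE2L2 for time in Grain (0.00421) and TXNRD1 for the cosine in Hay (0.0246) with upper-quartile factors. BACH1 gained a different cosine with DESeq2 size factors (0.0401), upper-quartile factors (0.042) and without T12 (0.015). OSGIN1 lost its cosine in Hay with overlapping genes added (0.0545). Some tests that just missed the threshold passed with 1 library left out. MAFG passed for time in Hay without Grain T0 replicate 3, Grain T16 replicate 1 or 2, or replicate 1 of Hay T0, T4, T16 or T20 (0.02 to 0.0498), and for the cosine in Grain without Grain T0 replicate 1 or 2 or any Grain T20 library (0.0204 to 0.0498). NFE2L2 passed for time in Grain without Grain T0 replicate 2 or 3, T4 replicate 1, T8 replicate 3 or T16 replicate 3 (0.0313 to 0.0452). BACH1 passed for a different cosine without Grain T0 replicate 1 or 2 or any Grain T20 library (0.019 to 0.0488). OSGIN1 passed for time in Hay without Grain T4 replicate 2 or 3, Hay T0 replicate 3, Hay T8 replicate 1, Hay T16 replicate 2 or Hay T20 replicate 2 (0.00284 to 0.0469). Genes with few reads, NQO1, OSGIN1 and MAFF in Hay, had the widest errors.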
